A study of Mus musculus with 2 samples.

Results

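Genes with names of the form Zfp and a number encode zinc finger proteins, and 251 of the 258 that the array carries under such a name were measured in the fetal lung of 2 mouse embryos. Members were chosen by 2 things only, the gene name in the scanner file and a measured brightness well above background in at least 1 of the 2 channels for over a 0.5 share of a probe's spots. The ratio between the channels played no part in the rule, whereas detection in each channel did. The 258 genes have 490 probes on the array, and 440 probes passed the rule and read the 251 members. A further 6 genes (Zfp109, Zfp133, Zfp371, Zfp541, Zfp804a and Zfp92) were not well above background in either channel, and the single spot of Zfp651 was an outlier and was left out. Detection reached 97.3% of the Zfp genes against 76.6% of all genes on the array, where 21262 were detected. Of the 251, both channels detected 242, the green one alone detected 2 and the red one alone 7.

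The study compared the lungs of 2 male litter mates at E16.5, heterozygous (Foxj1 +/-) and homozygous (Foxj1 -/-) for the Foxj1lacZ allele on a mixed Sv129/CD-1 background, to look for genes that depend on Foxj1, the forkhead transcription factor that drives motile cilia. No wild-type lung was on the array, so both lungs carry the lacZ allele. From each lung, freed of tissue outside the lobes, 100 ng of total RNA was amplified and labelled, the heterozygous RNA with Cy3 (green) and the homozygous RNA with Cy5 (red), and both were hybridised to 1 array with 60-base probes. The titles speak of lobes and the source names of epithelium, although no separation of the epithelium is described. With 1 lung per genotype and no dye swap, genotype, embryo and dye cannot be told apart, parts of the genome may differ in strain between the litter mates, and no difference below has a replicate check or a test. Levels are log2 intensities, and ratios are log2 of homozygous over heterozygous. Each ± gives the error that the scanner's error model assigns to the scanner's own log ratio, not to the ratio printed beside it. For dim genes these ratios can differ. The error covers spot and channel noise and neither embryos nor probes.

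Most Zfp proteins bind DNA through tandem C2H2 fingers, small folds in which 2 cysteines and 2 histidines hold a zinc ion and a helix reads a few bases. Many also carry a KRAB domain, which recruits the corepressor Trim28 and its histone-modifying and heterochromatin partners to silence retroelements and imprinted genes. Such genes lie in tandem clusters of close relatives, which differ between mouse strains, and the name Zfp is shared with regulators of development and with proteins that bind RNA or ubiquitin.

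Probe sequences are given first for some members, because a member is only as well defined as the stretch that reads it. Zfp146, Zfp748 and Zfp473 are shown because their probes differed, and Zfp52 for its linker. No sequence is shown here for Zfp191, whose probes differed most. Of the 440 kept probes, 12 hold the codons of the linker that joins successive fingers in an open reading frame, shown in capitals below for Zfp146 and Zfp52. These probes lie on mm8 at chr7:29871069-29871128, on the minus strand, and at chr17:21266468-21266527, on the plus strand, and stood at 0.31 and −0.23.
Zfp146 linker probe: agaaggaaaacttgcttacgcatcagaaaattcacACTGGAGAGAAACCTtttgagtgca
Zfp52 linker probe: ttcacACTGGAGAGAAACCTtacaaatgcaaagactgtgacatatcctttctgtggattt
They share a run of 21 bases around the linker. The next probe, of Zfp748 at chr13:68041010-68041068 on the minus strand (ratio 0.05), runs through most of 1 finger, with the capitals from the finger's second cysteine codon to its last histidine codon.
Zfp748 finger probe: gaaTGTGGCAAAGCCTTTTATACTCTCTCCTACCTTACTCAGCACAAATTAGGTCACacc
For 4 probes that stood apart from others of their gene the first 30 bases are given. The Zfp146 probe at chr7:29870013-29870051 had a ratio of 1.27 and the Zfp748 probe at chr13:68044242-68044301 a ratio of 1.16, both with a stop codon in all 3 frames. The Zfp473 probes at chr7:44610486-44610545 and chr7:44600221-44600280, all on the minus strand like the former pair, stood at −1.69 and 0.04.
Zfp146 high probe: cctgaatatcttcagtacgggaagtgttca
Zfp748 high probe: cattcattcattcatttctatcagaagaca
Zfp473 low probe: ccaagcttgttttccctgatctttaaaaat
Zfp473 other probe: caaaccatagagttcagactactgtcagga
Of the 12 linker probes, 8 share at least 20 bases in a row with a probe of another gene, against 13 of all 440 kept member probes. Their ratios ran from −0.23 to 0.47. Together with 28 probes that hold other pieces of a finger, none of these 40 probes reached 2-fold. The 8 member probes past 2-fold were 5 of 314 in an open frame without finger codons and 3 of 86 with stops in all frames. Of all kept probes on the array 1.75% were at least 2-fold lower and 0.646% higher. Having none among 40 therefore does not set the finger probes apart. These classes were drawn up after the values were seen, only probes and not whole transcripts were compared, and whether a probe lies in an exon or UTR was not analysed here.

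As a family the Zfp genes were nearly level between the lungs, and single genes stood outside a narrow spread. The median ratio was 0.05 over the 251 genes and −0.00 over all 21262 detected genes. The middle 50% of the Zfp genes spanned 0.29, from −0.09 to 0.19, against 0.34 for all genes, and their central 95% ran from −0.50 to 0.45 against −0.90 to 0.54. In all, 240 of the 251 (95.6%) lay within 0.5 of 0, compared with 89.1% of all genes. Ratios were below 0 for 107 and above 0 for 144 (57.4%, against 49.5% of all genes).

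A gene counts here as past 2-fold when its ratio is at most −1 or at least 1. By that measure 2 Zfp genes (0.797%) were lower in the homozygous lung, Zfp474 and Zfp191, against 1.88% of all detected genes. None was at least 2-fold higher, against 0.578% of all genes. At 1.5-fold, 5 Zfp genes (1.99%) were lower against a background of 5.88%, and 2 (0.797%) were higher against 2.10%. The shares of Zfp genes past either fold were therefore below those of the array in both directions. At 2-fold the counts were too small to set the family apart. The median scanner error of a member was 0.21, of the same order as the family's spread.

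**Figure D1:**
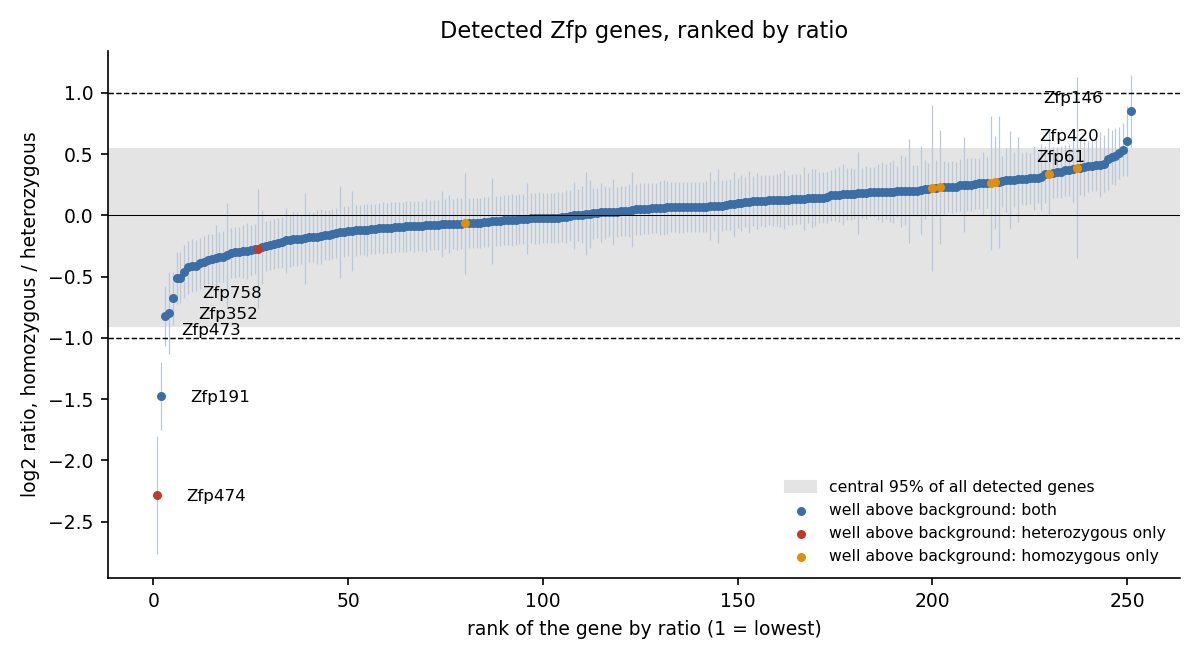
Log2 ratio of homozygous over heterozygous lung for the 251 detected Zfp genes, ranked from lowest to highest, with the scanner error as bars and the channel of detection as colour. The grey band is the central 95% of all detected genes (−0.90 to 0.54) and dashed lines mark 2-fold; Zfp474 and Zfp191 lie below the lower line and no gene lies above the upper one.

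The other zinc finger families on the array gave a like picture except for one. The 30 detected Zbtb genes, whose proteins pair fingers with a BTB domain, had a median of 0.11, the 13 Zscan and Zkscan genes with a SCAN domain 0.00, and the 11 Zc3h genes with CCCH fingers, which bind RNA, 0.05. The 24 Kruppel-like and Sp factors had a median of −0.21. Of these 21 were below 0, beside 10729 of all 21262 detected genes. They ran from −0.84 for Klf1, the erythroid factor, to 0.49 for Sp1. No gene of these 4 families was past 2-fold, in 78 genes in all and beside array shares of 1.88% lower and 0.578% higher, so the count does not set them apart. The difference between families was not tested. These 4 families were not computed with other processing, of which median centring moved the median of all genes to 0.22.

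**Figure D2:**
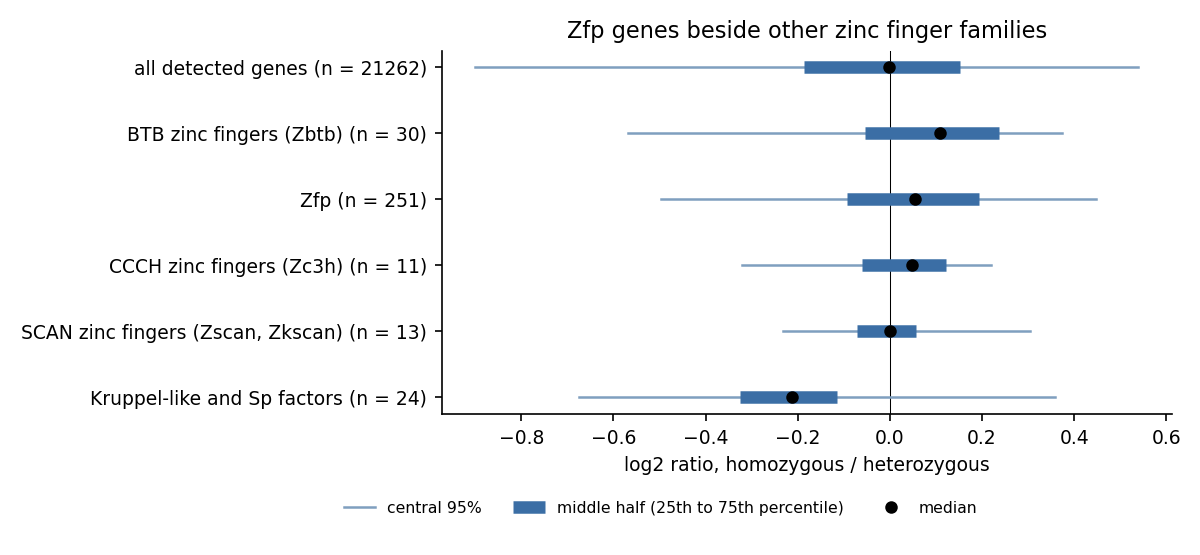
Log2 ratio of homozygous over heterozygous lung by family, with the median (point), the 25th to 75th percentile (thick bar) and the central 95% (thin line). The Zfp median is 0.05 and that of the Kruppel-like and Sp factors −0.21, while the widest central range is that of all detected genes.

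The largest difference was that of Zfp474, which was bright in the heterozygous lung only. Its single probe, on chromosome 18 from 52764995 to 52765054 (mm8, plus strand), read a level of 8.50 in the heterozygous and 6.22 in the homozygous lung. The second value was not well above background, so the ratio of −2.28 ± 0.48 rests on an undetected level. Taking the homozygous level at the lowest detected in that channel (6.32) gives a bound of 4.53-fold lower. This bound is approximate, because undetected probes can read above that level, as a probe of Zfp458 did at 6.55. Its ratio was −3.44 with no offset in the background correction and −4.44 as computed by the scanner. Within 0.25 Mb the 3 other detected genes stood at −0.31 (Lox, which crosslinks collagen), 0.25 and 0.37 (Srfbp1), none of them past 1.5-fold.

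Zfp191, called Zfp24 in RefSeq and known for its need in the maturation of myelinating oligodendrocytes, was lower with both probes that measured both lungs. On chromosome 18 of mm8, the probe from 24155262 to 24155306 read 9.70 in the heterozygous and 8.19 in the homozygous lung (−1.51 ± 0.26). That from 24157484 to 24157543 read 8.93 and 7.46 (−1.47 ± 0.28). The third, from 24154683 to 24154742, read 6.81 and 7.99 (1.18 ± 0.33), with only the homozygous value well above background. It passed the rule only through the channel where it is high and adds no support for a direction. The first 2 probes lie on 1 transcript record and the third on another, all on the minus strand. The gene value, the median of the 3, was −1.47 or 2.77-fold lower, and the mean, which includes the third probe, was −0.60. The 2 probes measured in both lungs gave −1.49. Of 6 other genes within 0.25 Mb none was past 2-fold by its gene value, the lowest being Ino80c at −0.74, while the finger genes Zfp35 (0.20) and Zfp397 (0.13) beside it stood near 0.

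Zfp473, the mouse counterpart of a component of the U7 particle that trims histone mRNA, also differed by probe. The probe designed on one transcript record read 12.15 in the heterozygous and 10.46 in the homozygous lung (−1.69 ± 0.26), which is past 2-fold. The probe on another record read 7.43 and 7.47 (0.04 ± 0.24), which is level, and the gene value of −0.82 lies between them. Zfp352, known as a gene of the 2-cell embryo, lies on chromosome 4. One of its probes read 8.47 and 7.31 (−1.16 ± 0.26) and the other 6.85 and 6.41 (−0.43 ± 0.41), the latter above background in the heterozygous lung only, for a gene value of −0.80. Only the first probe measured both lungs. Zfp352 was past 2-fold under several alternatives, at −1.16 with probes above background in both channels, −1.17 with no offset and −1.45 with the scanner software's log ratio. Zfp758, a finger gene on chromosome 17, read 9.77 and 8.87 with one probe (−0.90 ± 0.22) and 12.67 and 12.21 with the other (−0.46 ± 0.21), and the gene stood at −0.68, or −0.18 with median centring. The brighter probe shares 26 bases in a row with a probe of a Znf41 pseudogene.

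On the other side Zfp146, whose protein consists almost wholly of fingers, had the highest ratio. Its probes on chromosome 7 read 7.25 in the heterozygous and 8.52 in the homozygous lung (1.27 ± 0.30), 7.71 and 8.02 (0.31 ± 0.22), and 6.20 and 7.05 (0.85 ± 0.61), the last above background in the homozygous lung only. The first 2 measured both lungs, lie on the same transcript record and were both higher in the homozygous lung, the linker probe less so. The third passed the rule only through the channel where it is high and adds no support for a direction. The gene value of 0.85 is the ratio of that last probe, and the probes above background in both channels gave 0.79. It depended on the correction of these dim signals, at 0.52 with median centring, 1.70 with no offset and 2.17 with the scanner software's log ratio.

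Zfp420, on the same chromosome, had 1 probe measured in both lungs, which read 8.36 and 8.96 (0.61 ± 0.22). Its other probe, above background in the homozygous lung only, read 6.68 and 7.29 (0.61 ± 0.35) and adds no support. The gene stood at 0.61, or 1.52-fold higher, and at 1.22 with the scanner software's log ratio. Zfp61 read 8.03 and 8.69 with one probe (0.66 ± 0.23) and 11.63 and 12.04 with the other (0.41 ± 0.21), for a gene value of 0.54.

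Behind these the ratios closed up. Among members measured in both channels the next lowest were Zfp235 and Zfp69 (both −0.51 ± 0.21), Zfp354b (−0.46 ± 0.21) and Zfp40 (−0.43 ± 0.21). Zfp369, a binding partner of the p75 neurotrophin receptor, stood at −0.41 ± 0.22 and Zfp811 at −0.38 ± 0.21. Zfp503, a corepressor of the developing brain and limb also called Nolz1, stood at −0.41 ± 0.21 and Zfp52 at −0.39 ± 0.21, but both turned positive with median centring (0.26 and 0.12). The next highest were Zfp692 (0.51 ± 0.21), Zfp454 (0.48 ± 0.23), Zfp182 (0.48 ± 0.22), Zfp128 (0.46 ± 0.25) and Zfp57 (0.42 ± 0.23). Zfp558 (0.41 ± 0.27), Zfp467 (0.41 ± 0.21), Zfp39 (0.40 ± 0.21) and Zfp239 (0.40 ± 0.21) completed the 12 highest. Each of these values is within 3 scanner errors of 0, and most of these genes rest on 1 probe. The error belongs to the scanner software's log ratio, however. By that ratio Zfp128 (0.89), Zfp454 (0.80), Zfp182 (0.76) and Zfp57 (0.72) lay beyond 3 errors.

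**Figure D3:**
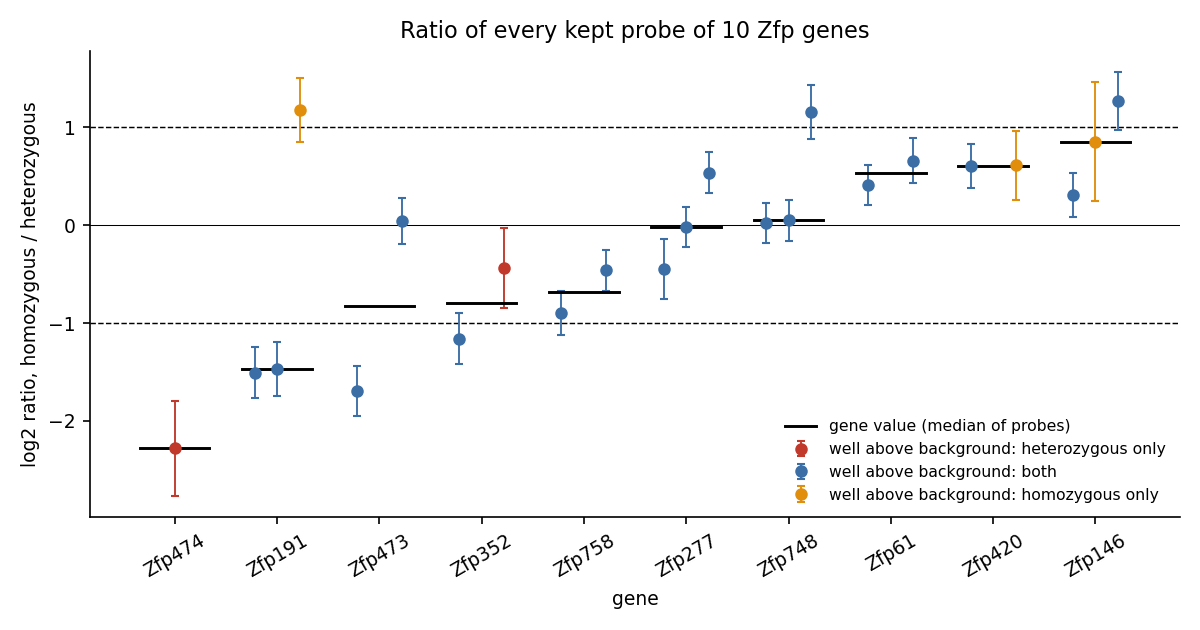
Log2 ratio of homozygous over heterozygous lung for every kept probe of 10 Zfp genes, with the scanner error as bars, the channel of detection as colour and the gene value as a black line. Zfp191 spans −1.51 to 1.18 and Zfp473 −1.69 to 0.04, and single-channel probes, such as the highest of Zfp191 and 1 of the 2 of Zfp420, are coloured apart.

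How far probes of a gene differ sets what a single-probe member can show. The 128 Zfp genes with several kept probes had a median range of 0.25 between the lowest and highest probe, as did all genes (0.25), and a pooled SD between probes of 0.29 (0.27 for all genes). The remaining 123 members had 1 probe. The range exceeded 1 for Zfp191 (2.69, through its single-channel probe), Zfp473 (1.73) and Zfp748 (1.14). In Zfp748 probes on 1 record read 9.88 and 9.89 (0.02 ± 0.20) and 8.28 and 8.33 (0.05 ± 0.21), and the probe on another record read 7.52 and 8.67 (1.16 ± 0.27), so that its gene value of 0.05 hides a high probe. Ranges past 2-fold were found in 2.34% of the Zfp genes with several probes and in 2.76% of all such genes. Probes of 59 genes (46.1%) had opposite signs, among them Zfp277 with −0.45, −0.02 and 0.54, the same share as among all genes (46.2%). At probe level 5 of 440 (1.14%) were past 2-fold on the lower side and 3 (0.682%) on the higher side, in 6 genes, against 1.75% and 0.646% of all kept probes.

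The probe pairs at least 2-fold apart all joined different transcript records. Of 135 pairs of member probes designed on different records, 5 were that far apart (3.7%), all in Zfp191, Zfp473 and Zfp748, and the median difference was 0.20. The pairs of Zfp191 involve its probe above background in the homozygous lung only. Of 143 pairs on the same record none was, with a median difference of 0.17 and a largest one of 0.96, in Zfp146. This division was made after the values were seen and was not tested. Zfp genes with 1 reading channel gave little more. The dim channel was taken at no less than the lowest level detected in it. Besides Zfp474 the largest differences were then 1.27-fold higher for Zfp112 and 1.21-fold lower for Zfp458. On the log2 scale these are 0.34 and 0.27, beside scanner errors of 0.34 and 0.49. They equal the measured ratios and set no lower limit, and the channel that passed the rule helps to fix their sign. At the edge of the rule the dimmest kept probe, of Zfp295, read 6.35 and 6.53, and the brightest probe left out, of Zfp458, read 6.61 and 6.55.

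The median ratio of the Zfp genes differed between brightness bands. For the 48 members whose mean log2 intensity lay between 7 and 8 the median was 0.19, and the 47 of them above background in both channels also 0.19, against −0.05 for all genes in either case. The 14 members under 7 had a median of 0.20, but 7 of these passed the rule through the homozygous channel only, with a median of 0.27, which helps to fix the sign. The 6 measured in both channels had a median of −0.04, against −0.08 for all such genes. Between 8 and 11 the Zfp medians were 0.06, 0.06 and 0.04. The 26 members from 11 to 12 had a median of −0.07 and the 28 above 12 a median of −0.09, against 0.01 and 0.00 for all genes. With the scanner software's log ratio, a comparison added after the values were seen, the medians of the same bands were 0.35 from 7 to 8 and −0.04 above 12 for Zfp genes, and ran between −0.02 and 0.08 for all genes. Brightness here also differs with the probe, its base composition and the transcript's level, whose parts were not tested.

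**Figure D4:**
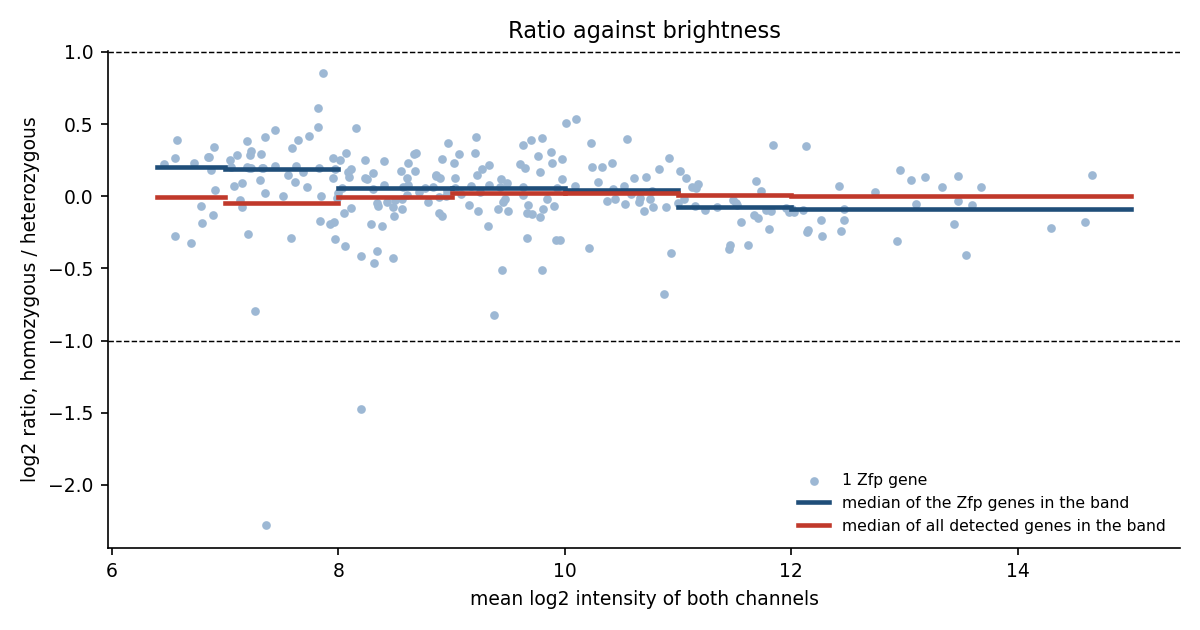
Log2 ratio of homozygous over heterozygous lung against the mean log2 intensity of both channels for the 251 Zfp genes, with the median per brightness band for Zfp genes (dark blue) and for all detected genes (red); dashed lines mark 2-fold. The Zfp median is 0.19 from 7 to 8 and −0.09 in the brightest band, and that of the dimmest band (0.20) includes 7 genes detected in the homozygous channel only.

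By role the members gave small values on both sides. The list for imprinting, the early embryo and retroelement silencing had 7 detected of 12 and a median of −0.04. It had no gene past 1.5-fold, beside array shares of 5.88% lower and 2.10% higher. Its lowest was Zfp42 (Rex1), a marker of pluripotent cells, with levels of 6.86 and 6.54 and a ratio of −0.32 ± 0.42. Zfp809, which silences retroviral DNA, stood at −0.30 ± 0.21 and Zfp445, which protects imprints, at −0.04 ± 0.21. Its highest was Zfp57, which keeps imprints methylated, at levels of 7.53 and 7.95 (0.42 ± 0.23).

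Developmental and transcriptional regulators had 32 of 35 detected and a median of 0.03. Only Zfp191 was past 2-fold (3.12% of the list, against 1.88% of all genes on the lower side), which does not set the list apart. Zfp369 and Zfp503 followed, Zfp423, a cofactor of adipocyte and cerebellar development, stood at −0.18 ± 0.22, Zfp521 at 0.04 ± 0.20 and Zfp281, a pluripotency regulator, at 0.07 ± 0.20. Zfp467, which promotes fat cell fate, was the highest at levels of 9.01 and 9.42. The 12 detected RNA, ubiquitin and spindle proteins of 18 listed had a median of 0.12. None was past 1.5-fold, beside array shares of 5.88% lower and 2.10% higher. They ran from Zfp313, a ubiquitin ligase, at −0.16 ± 0.21 (0.46 with median centring) to Zfp326, a splicing factor partner, at 0.39 ± 0.23. Zfp36 (tristetraprolin), which destabilises AU-rich mRNA, stood at −0.07 ± 0.24 and Zfp598, a sensor of collided ribosomes, at 0.35 ± 0.21.

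The proteins that KRAB zinc fingers recruit were mostly a little higher in the homozygous lung. Of 24 listed genes 21 were detected, 18 of them above 0 (85.7%, against 49.5% of all genes), with a median of 0.27 against −0.00 for all genes. None was past 1.5-fold, beside array shares of 5.88% lower and 2.10% higher. With median centring, which moved the median of all genes to 0.22, the list's median was 0.77 and all 21 were above 0. Trim28, the corepressor that KRAB binds, read 14.43 and 14.60 (0.17 ± 0.21) and Setdb1, the H3K9 methyltransferase it brings, 9.99 and 10.19 (0.20 ± 0.21). The highest were the heterochromatin protein Cbx3 (0.54 ± 0.21), Pphln1 of the silencing complex HUSH (0.53 ± 0.21) and Morc2a (0.43 ± 0.23). The lowest were the deacetylase Hdac1 (−0.49 ± 0.21), the heterochromatin protein Cbx1 (−0.36 ± 0.21) and the remodeller Chd3 (−0.09 ± 0.26), all 3 of which turned positive with median centring (0.31, 0.33 and 0.17). Cbx3 stood at 0.24 with its brightest probe.

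The tissue check for both lungs bears on all these values. Titf1 (Nkx2-1, −0.15), Foxa2 (0.04), Cdh1 (0.26) and Sftpc (0.33), the detected markers of lung epithelium, were present in both channels. The 5 detected of 6 multiciliated cell markers were all at least 2-fold lower in the homozygous lung, from −3.01 for Meig1 to −1.37 for Tekt1, with Foxj1 at −1.92 and a summed log2 level of 13.02 against 10.95. All 4 cardiac muscle markers were as well, led by Myl7 at −3.52 (summed log2 level 14.77 against 11.46). Of 3 germ cell markers 2 were detected, both through the homozygous channel only, Ddx4 at 1.22 ± 0.44 and Sycp3 at 0.44 ± 0.68. The channel that passed them helps to fix their sign, so they add no support for a direction. The part of these cells in any Zfp ratio was not tested, and fewer cells of a type and less RNA per cell cannot be told apart in whole lobes.

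Members inside and outside chromosomal clusters had like medians. Taking at least 5 detected members each within 1 Mb of the next, 12 clusters held 95 genes with a median of 0.03, and the 155 placed genes outside had a median of 0.06. None of the 95 and 2 of the 155 were past 2-fold, all on the lower side, beside array shares of 1.88% lower and 0.578% higher; counts this small do not set the clusters apart. The cluster on chromosome 7 from 29.49 to 29.87 Mb (mm8) holds 11 members, among them Zfp420 (0.61) and Zfp146 (0.85). The other members there ran from −0.12 (Zfp14) to 0.37 (Zfp566), so both stood above all others of the cluster. A second cluster on chromosome 7, from 23.82 to 24.94 Mb, held both Zfp235 (−0.51) and Zfp61 (0.54), less than 0.2 Mb apart.

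The cluster on chromosome 17 from 20.73 to 23.3 Mb had the lowest median, −0.14 over 9 members, with 6 below 0. Zfp758 (−0.68), Zfp40 (−0.43), Zfp52 (−0.39) and Zfp13 (−0.36) were its lowest and Zfp760 (0.39, homozygous channel only) its highest. Within 0.25 Mb of Zfp758, 5 of the 6 other detected genes were below 0, with a median of −0.31 and none past 1.5-fold. Zfp946 (−0.39), Zfp994 (−0.34), Zfp947 (−0.32) and Zfp944 (−0.16), named through RefSeq, are 4 of these 5. All 5 members of the cluster on chromosome 7 from 4.52 to 4.66 Mb were below 0, from −0.34 (Zfp524) to −0.05 (Zfp628). The highest median was 0.17, in the cluster of Zfp354a, Zfp354b, Zfp354c, Zfp454 and Zfp2 on chromosome 11, which still spanned −0.46 to 0.48. These windows were drawn with the values known, and shared bases between probes of neighbours were not modelled.

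**Figure D5:**
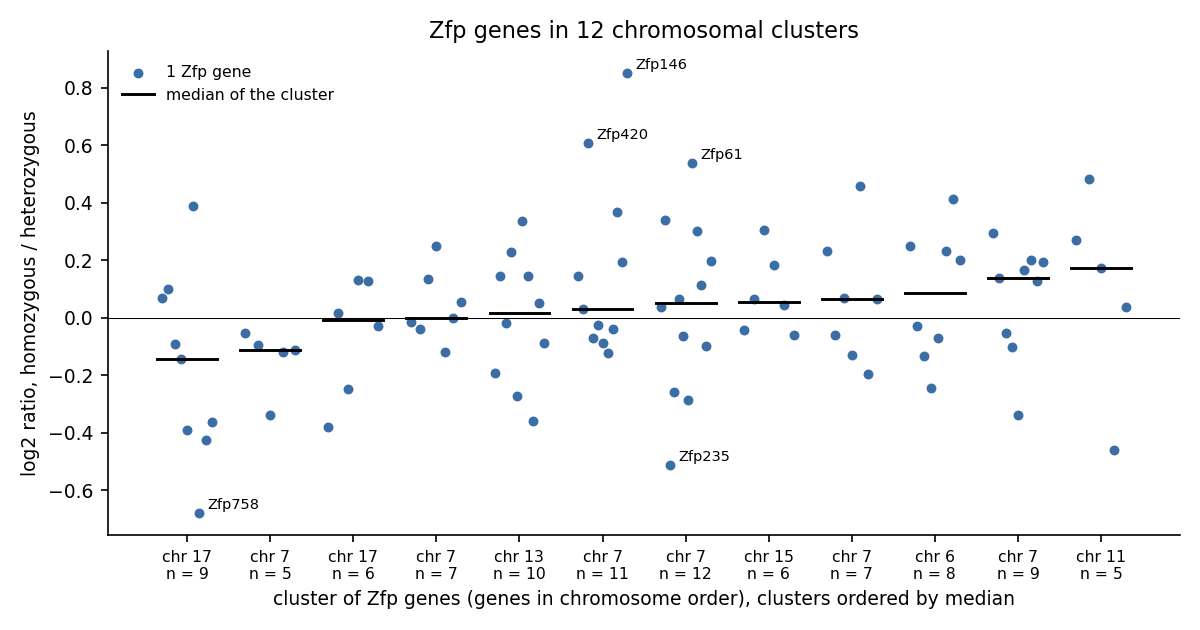
Log2 ratio of homozygous over heterozygous lung for the 95 Zfp genes in 12 chromosomal clusters, in chromosome order within each cluster, with the cluster median as a black line. Medians run from −0.14 to 0.17, and the labelled genes Zfp146, Zfp420, Zfp61, Zfp235 and Zfp758 lie at the upper or lower end of their cluster.

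Promoters of the members held more CG pairs, and the forkhead core less often, than those of all genes in RefSeq. The latter were not limited to genes detected here, so neither difference is shown to belong to the Zfp family. RefSeq (GRCm38.p6) gave 258 promoters, from 250 bases before to 50 after the start, for 201 members matched by symbol. Their median was 17 CG pairs per 300 bases, against 7 over 32851 promoters of all genes. The letters TGTTTAC, on either strand, were in 4 member promoters (1.55%), compared with 3.65% of all promoters. These belong to Zfp551 (0.23), Zfp688 (−0.34), Zfp72 (0.01) and Zfp469 (−0.29), named Tnrc18 in RefSeq, none of them past 1.5-fold. Promoters given for Zfp473, Zfp352, Zfp758, Zfp146 and Zfp420 did not contain these letters. No promoter is given here for Zfp474 or Zfp191, the members past 2-fold, so nothing is said of theirs. A match or its lack describes the letters in this window only.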

How the data were processed

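The authors deposited linear intensity values of each spot and its background, from Agilent Feature Extraction 9.5.3.1, per the submitters' processing notes. The deposited log ratio is log10 of red over green, with an error and a p-value from the software's error model, per the file headers; the p-value served only as a filter in 1 alternative. Flags for spots well above background were deposited too. The 2 scanner files are identical and count as 1 array. The authors' series matrix holds processed intensity times 1.68 with a floor of 15, found by comparison. From the scanner values, normexp (offset 50) and within-array loess with control spots at weight 0 were run in limma 3.58.1 (R 4.3.3), the remainder in Python 3.11.15 with pandas 2.3.3. Of 43379 spots, 169 outliers were left out, 0 were saturated, and 69.0% (heterozygous) and 75.6% (homozygous) were well above background. A gene is the median of its kept probes under the file's name; 228 members have the same symbol in RefSeq and 23 another. With the offset, changes of dim probes are understated. As a simulation, 200 bright spots of the array were changed by a log2 of 2 and recovered with medians of 1.90 and −1.90 over 100 spots each way. Only bright spots were changed, so this check does not cover dim members such as Zfp474 and Zfp146. Named genes are the 12 lowest and 12 highest members measured in both channels, 1-channel members with a bound of at least 2-fold, the ends of each role list, and 3 cofactor genes at each end, whose alternatives were added after the values were seen; others were named after their values were seen. The members, lists and rules were chosen with earlier results of these data known. A planned division by protein features was not run, since protein sequences were not used here.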

Additional observations from a re-analysis of the deposited data

How the results depend on the processing

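The 10 alternatives were background offset 0, the scanner software's log ratio, median centring, the series matrix, no filter on dim probes, probes above background in both channels, the mean of probes, the brightest probe, outlier spots kept and RefSeq symbols. The median of the Zfp genes was 0.35 with median centring, which moved the median of all genes to 0.22, and was within 1 scanner error of 0.05 under the others. The spread stayed below that of all genes except without a filter, where both were 0.27. Zfp genes at least 2-fold lower numbered 3 with offset 0, the series matrix or the scanner software's log ratio, where Zfp352 joined, 1 with the mean of probes (Zfp474), and 4 with the brightest probe or with RefSeq symbols. Genes at least 2-fold higher numbered 1 with offset 0, with the brightest probe (in both Zfp146) or with RefSeq symbols (Zfp874a). They numbered 6 with the scanner software's log ratio (2.39%, against 2.8% of all genes) and 5 with the series matrix (1.99%, against 2.17%). The 6 were Zfp146 (2.17), Zfp760 (1.82), Zfp295 (1.35), Zfp420 (1.22), Zfp354c (1.10) and Zfp316 (1.08), of which 3 were above background in the homozygous channel only. Under each of the 10 alternatives the Zfp shares past 2-fold stayed below those of all genes in both directions. On the higher side those of the scanner software's log ratio and the series matrix were near the array shares. Counts this small do not set the family apart. Counting only probes with a scanner p under 0.01, added to these 10, left 2 lower and 0 higher. The median of the cofactor genes was 0.77 with median centring and otherwise within 1 scanner error of 0.27. Of 337 values of 34 named genes (28 Zfp and 6 cofactor genes), 282 moved by less than the scanner error and 55 by more, 20 of them with median centring. None of the genes past 2-fold changed sign, and 6 other values did, Zfp503, Zfp52, Zfp313, Hdac1, Cbx1 and Chd3, all with median centring. The cause of these moves was not tested. Dim signals limit the ratios of single-channel genes, and 1 lung per genotype gives no measure of the spread between animals. No paired analysis was possible because each group has 1 sample.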

Other observations

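Many finger genes on the array carry older clone names and take a Zfp symbol only through RefSeq. There were 97 such detected genes, with a median ratio of −0.01 and a middle 50% spanning 0.27, 51 below and 46 above 0. In the homozygous lung 2 were past 2-fold on the lower side (2.06%) and 1 on the higher side (1.03%), near the array shares of 1.88% and 0.578%, all 3 chosen after their values were seen and read by 1 probe each. Zfp605 read 8.74 in the heterozygous and 6.29 in the homozygous lung, the second not well above background. Its bound, approximate like that of Zfp474, was 5.34-fold lower. Zfp979 read 11.01 and 9.92 (−1.09 ± 0.23). Zfp874a, on chromosome 13, read 7.78 and 10.11 (2.33 ± 0.35), while its close namesake Zfp874b stood at −0.34. Zfp33b was at 0.90 and Zfp987 at −0.68.

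Zfp945 had 4 probes that differed. One read 12.83 and 11.49 (−1.35 ± 0.24), and the others stood at 0.13, 0.24 and 0.45. The 3 probes of Zfp975 stood at −0.15, 0.64 and 0.79. As among the members, a gene value for these can hide a probe past 2-fold.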
